A study of Homo sapiens with 9 samples.

Results

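The genes described here are 44 genes of mitosis and chromosome segregation, taken by symbol from the 60240 genes of a deposited table of gene counts. They were chosen by their known roles, but with earlier results of these data known. All 44 were abundant enough to be tested, among 17058 tested genes. They were measured by RNA sequencing in 9 libraries of MDA-MB-231, an established human cell line of basal-type breast cancer. Every culture carried a lentiviral vector that doxycycline switches on, and every culture received doxycycline at 100 ng/ml for 3 days. In the 3 control libraries the vector encoded GFP and luciferase. In the 3 ERβ1 libraries it also encoded isoform 1 of oestrogen receptor beta, and in the 3 libraries called ERβ1 + CLI such cells received the ligand CLI for 24 h as well. No control cells received CLI, so an action of CLI outside the receptor cannot be told apart from one through it, and the cells compared are separately transduced populations. The stated purpose was to learn how the receptor, with and without ligand, acts on gene expression and growth of triple negative breast cancer cells.

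Mitosis begins when the kinase CDK1, bound to a B-type cyclin, phosphorylates its many substrates. Motor proteins and microtubule binders then build the spindle, kinetochores attach chromosomes to it, and the checkpoint holds back the anaphase-promoting complex (APC/C) until all chromosomes are attached. CDC20 then activates the APC/C, separase cuts cohesin, and a contractile ring divides the cell. Most of these genes are transcribed mainly in late S, G2 and M phase, and many carry in their promoters a CHR element, which binds the DREAM and B-MYB complexes, and CCAAT boxes, which bind NF-Y. In bulk RNA, fewer cells in mitosis and less RNA per cell cannot be told apart.

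The promoters below are shown because they carry these elements in members that differ in their response. CDC20, KIF23, CDK1 and HMMR were lower than in control cells with and without CLI, PLK1 only with CLI by the test used, and MKI67 and CCNB1 in neither. Each line gives the 110 bases before a RefSeq transcription start (GRCh38.p14) on the gene's strand, with capitals on each CCAAT box and each CHR core (TTTGAA or TTCGAA), on either strand. In HMMR 2 CCAAT matches on opposite strands overlap, and in MKI67 a CHR core runs into a CCAAT match. Of the 2 CDK1 starts listed, that with the most CHR cores in these 110 bases is shown. The other start has its CHR core at -161 and its CCAAT box at -150, beyond the 110 bases.
CDC20 (chr1:43358871-43358980, plus strand): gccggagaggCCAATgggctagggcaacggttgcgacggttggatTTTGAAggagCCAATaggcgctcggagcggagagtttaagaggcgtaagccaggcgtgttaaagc
KIF23 (chr15:69414239-69414348, plus strand): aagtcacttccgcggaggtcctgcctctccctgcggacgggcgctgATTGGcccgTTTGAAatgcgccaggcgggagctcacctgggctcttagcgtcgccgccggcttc
CDK1 (chr10:60778368-60778477, plus strand): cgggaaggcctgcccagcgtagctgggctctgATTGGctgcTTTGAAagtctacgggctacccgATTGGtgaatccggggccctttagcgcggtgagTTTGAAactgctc
HMMR (chr5:163460522-163460631, plus strand): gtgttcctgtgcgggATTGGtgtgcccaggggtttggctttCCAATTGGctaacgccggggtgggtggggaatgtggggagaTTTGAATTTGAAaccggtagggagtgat
PLK1 (chr16:23678779-23678888, plus strand): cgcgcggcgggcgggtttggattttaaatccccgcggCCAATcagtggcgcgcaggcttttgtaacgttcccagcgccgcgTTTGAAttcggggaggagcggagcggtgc
MKI67 (chr10:128126424-128126533, minus strand): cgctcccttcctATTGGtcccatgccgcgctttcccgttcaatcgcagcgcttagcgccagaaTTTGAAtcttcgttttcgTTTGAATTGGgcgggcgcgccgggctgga
CCNB1 (chr5:69167040-69167149, plus strand): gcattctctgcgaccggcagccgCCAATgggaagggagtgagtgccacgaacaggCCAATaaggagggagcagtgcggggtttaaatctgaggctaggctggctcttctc

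In these letters CDC20 had a CHR core between 2 CCAAT boxes, and KIF23 and PLK1 had 1 of each. CCNB1 had 2 CCAAT boxes and no CHR core in the window. RefSeq promoters, running from 250 bases before to 50 bases after the start, were found for 38 of the 44 genes, and not for UBE2C, TTK, FOXM1, AURKA, BIRC5 and TPX2. A CHR core stood in the promoter of 31 of the 38 genes (81.6%), against 19.5% of all 27305 genes of the promoter table. A CCAAT box stood in 32 (84.2%), against 39.7%, and both in 27 (71.1%), against 9.02%. Among 119 other cell cycle genes of 6 lists described below, the shares were 42.0% for the CHR core, 61.3% for the CCAAT box and 27.7% for both. All 13 members called lower in ERβ1 cells held a CHR core, as did 18 of the 25 members with a promoter that were not called. A CCAAT box was found in 10 of those 13 and in 22 of those 25. These matches describe the letters and were not tested against the RNA levels.

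The libraries held 39902732 to 55387274 estimated counts. Levels are given as CPM, the count of a gene per 1e6 counts of the library, with library sizes scaled by TMM, and are compared within a gene only. The transduced gene ESR2 averaged 0.137 CPM in control, 117 CPM in ERβ1 and 84.2 CPM in ERβ1 + CLI libraries; control and receptor libraries thus stood as labelled. The mesenchymal marker VIM stood at 2416.5 to 3113.8 CPM, and of 5 blood markers the erythroid gene HBB was at 0 in every library. The classical oestrogen receptor gene ESR1 reached 5.98 CPM in ERβ1 + CLI replicate 2 and 0.765 CPM in replicate 1, and was at most 0.114 CPM in the other libraries. Summed over their lists, luminal markers took 1214.6 to 1253.7 CPM in control, 1079.7 to 1163.8 CPM in ERβ1 and 1097.0 to 1189.7 CPM in ERβ1 + CLI libraries. Almost all of this was KRT8, KRT18 and KRT19, at means of 565, 325 and 325 CPM in control libraries. PGR and FOXA1 reached at most 0.124 and 0.215 CPM. GATA3 averaged 11.2, 8.79 and 8.03 CPM and SPDEF 3.05, 0.433 and 0.473 CPM in the same group order. AGR2 averaged 0.887 CPM in control and was at 0 in every receptor library. The 6 markers of the basal line took 7736.5 to 8162.3, 6779.1 to 6987.6 and 6585.4 to 6987.8 CPM, with none at 0. Fibroblast markers summed to 22.7 to 30.7, 26.2 to 36.1 and 27.4 to 40.1 CPM, and blood markers, almost all of it CD68, to 80.1 to 82.9, 88.8 to 94.5 and 77.6 to 88.0 CPM. The part of other cells in the results below was not tested.

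The mitosis genes together took 9397.9 ± 129.6 CPM in control libraries, 8786.6 ± 211 CPM in ERβ1 libraries and 8611.4 ± 197 CPM in ERβ1 + CLI libraries (SD, n = 3 each). The sums were 9445.9, 9496.6 and 9251.2 CPM in control, 8821.5, 8977.8 and 8560.5 CPM in ERβ1 and 8544.2, 8833.3 and 8456.7 CPM in ERβ1 + CLI libraries. Every receptor library was below every control library, and the receptor groups overlapped. The log2 level of each gene was also set against its mean over the 9 libraries, and the median of these deviations over the 44 genes taken for each library. It was 0.067, 0.083 and 0.062 in control, -0.019, 0.007 and -0.05 in ERβ1 and -0.065, -0.017 and -0.083 in ERβ1 + CLI libraries. The highest of the 9 libraries was a control library for 30 genes, and the lowest was an ERβ1 + CLI library for 26 and an ERβ1 library for 13. The highest and lowest library were not counted for other genes, so these counts have no background.

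**Figure D1:**
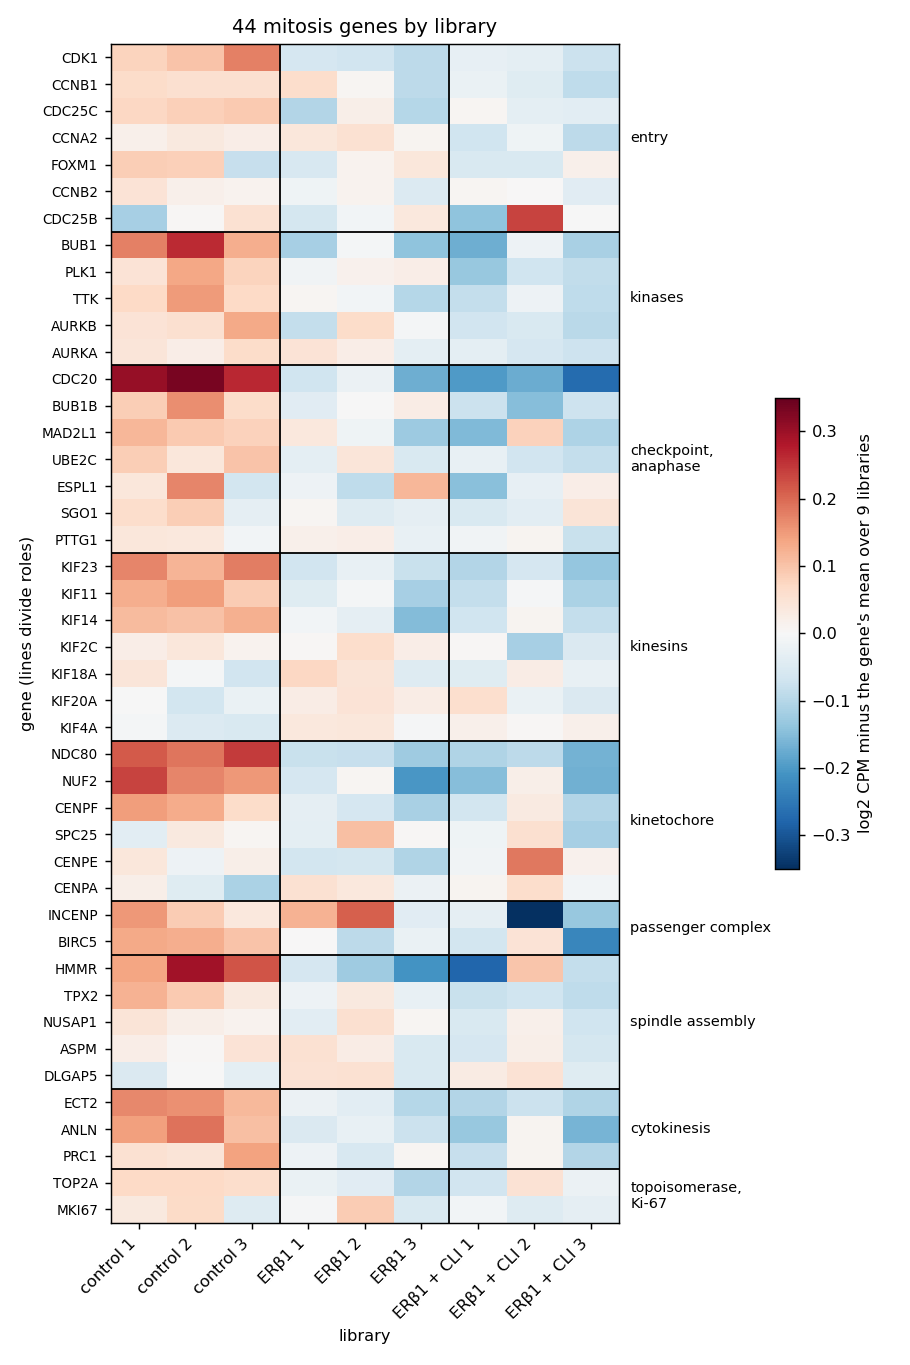
Log2 CPM of each of the 44 mitosis genes (rows, grouped by role) in the 9 libraries (columns), as the difference from the gene's mean over all libraries, with red above and blue below that mean. Control columns are mostly red, with the highest library for 30 genes, a count not made for other genes.

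ERβ1 cells were first compared with control cells. RNA of 13 of the 44 genes was lower (29.5%) and of none was higher (edgeR quasi-likelihood test, adjusted p under 0.05 over all genes tested). Over all genes tested, 10.7% were called lower and 10.7% higher. Among the 8648 genes at least as abundant as the least abundant member (16.4 CPM), 16.4% were called lower. These genes, called equally abundant below, share only that lower limit and were not matched to the members in level. The median log2 fold change was -0.085 for the members, with a range of -0.39 to 0.067, and -0.001 for all genes tested. It lay below 0 for 34 members (77.3%) and for 57.9% of the equally abundant genes. The groups did not overlap for 21 members that were lower (47.7%, against 28.6% of the equally abundant genes) and for 2 that were higher, KIF4A and KIF20A (against 18.0%). Leaving out control replicate 1, control replicate 2 or ERβ1 replicate 3 lowered the count of calls to 7, 6 and 6. With library totals in place of TMM, an alternative chosen after seeing the data, 6 were lower and KIF4A was higher, the median was -0.034, and the share of lower calls among all calls fell from 49.9% to 33.0% over all genes.

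ERβ1 + CLI cells were compared with the same control libraries, so that these 2 comparisons share their controls and are given side by side. RNA of 21 members was lower (47.7%) and of none was higher, against 13.1% of all genes tested called lower and 13.3% higher. Among the equally abundant genes 20.3% were lower. The median log2 fold change was -0.12, from -0.51 to 0.064. Below 0 lay 38 members (86.4%) and 59.0% of the equally abundant genes. The groups did not overlap for 29 lower members (65.9%, against 30.3% of the equally abundant genes) and 1 higher, KIF4A (against 18.1%). The count of calls was 11, 13 and 13 without control replicate 1, 2 and 3, and 13 and 11 without ERβ1 + CLI replicate 1 and 3. Without TMM it was 11, KIF4A was called higher, the median was -0.071, and the share of lower calls over all genes fell from 49.6% to 35.8%.

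The calls of both comparisons held 12 genes in common: ANLN, BUB1, CDC20, CDK1, CENPF, ECT2, HMMR, KIF11, KIF14, KIF23, NDC80 and NUF2. TOP2A was called in ERβ1 cells alone, AURKA, AURKB, BIRC5, BUB1B, PLK1, PRC1, TPX2, TTK and UBE2C with CLI alone, and 22 genes in neither. Being called in 1 comparison and not in the other does not show a difference between them. That difference was tested directly between ERβ1 cells with and without CLI, and no member was called (edgeR, adjusted p under 0.05). No member was called by DESeq2 or limma-trend either, nor with the replicate number as a block. The p-values and intervals given for this comparison come from the fit without that block, although these libraries counted as pairs. At an unadjusted p under 0.05 stood 8 members, CCNA2, PLK1, BUB1B, CDC20, KIF2C, CENPE, INCENP and TPX2, or 18.2% against 12.8% of all genes tested and 15.9% of the equally abundant genes. The adjusted test called 1.47% of all genes, 0.428% lower and 1.04% higher. The median log2 difference of the members was -0.036, and 34 of them lay below 0 (77.3% against 53.6% of the equally abundant genes). Leaving out 1 library moved that median between -0.057 without ERβ1 + CLI replicate 2 and -0.014 without ERβ1 + CLI replicate 3, and it was -0.021 without ERβ1 replicate 2. The groups did not overlap for 6 members that were lower with CLI (CCNA2, PLK1, AURKA, BUB1B, CDC20 and TPX2) and for 1 that was higher (CENPE), against 11.8% and 9.55% of the equally abundant genes.

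**Figure D2:**
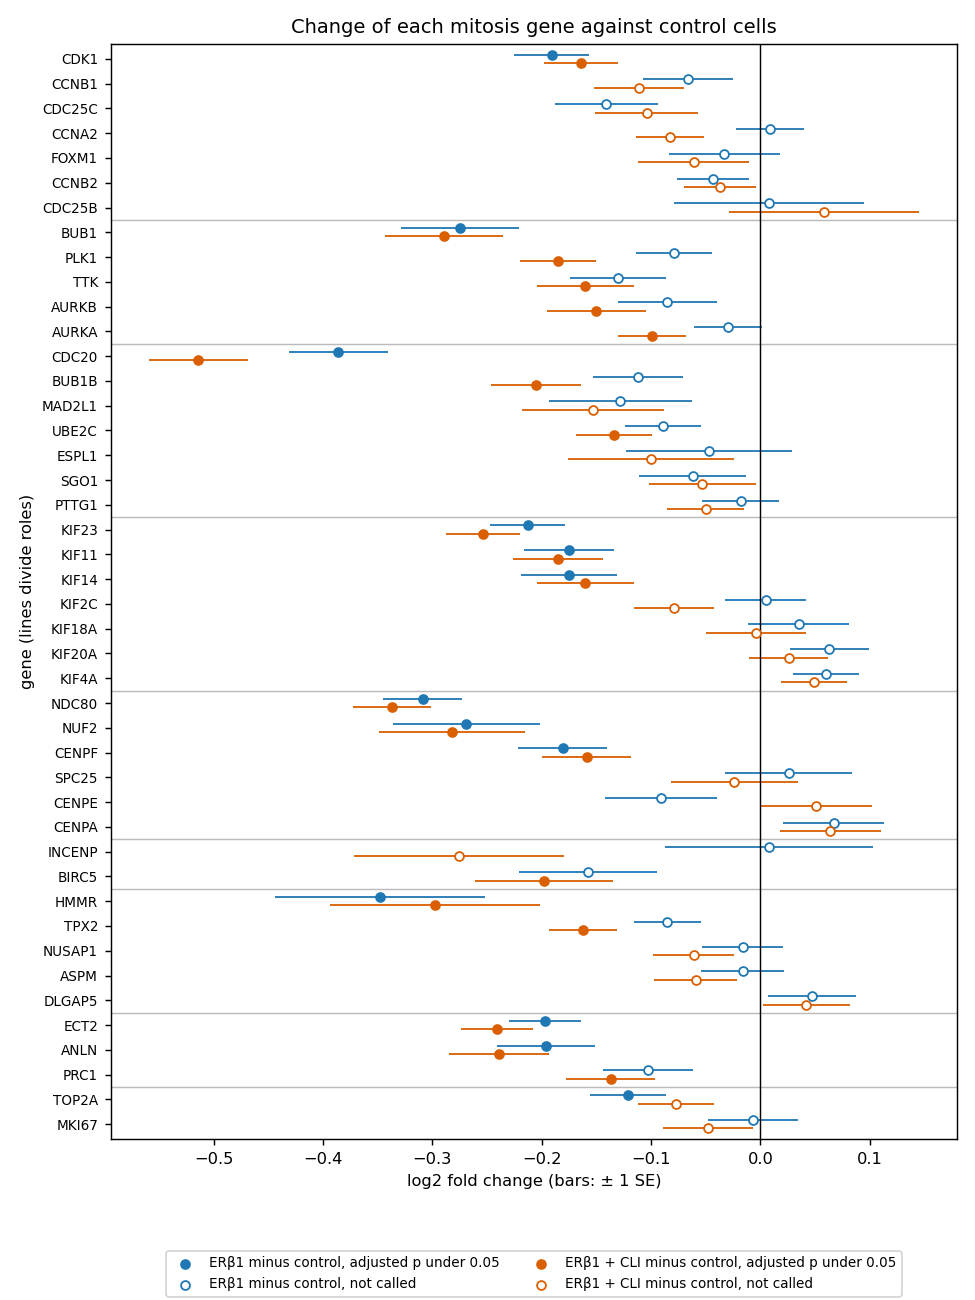
Log2 fold change of each mitosis gene in ERβ1 (blue) and ERβ1 + CLI cells (orange) against control cells, with bars of 1 SE, where filled points had an edgeR adjusted p under 0.05. All filled points lie below 0, from -0.51 for CDC20 with CLI to -0.099 for AURKA with CLI, and both series share the control libraries.

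CDC20 changed the most. It activates the APC/C at the end of metaphase and is the protein that the spindle checkpoint holds in check. Its RNA (ENSG00000117399; chromosome 1, 43358955 to 43363203, plus strand, GRCh38) stood at 239.7, 245 and 233 CPM in control, 185, 192 and 172 CPM in ERβ1 and 169, 172 and 161 CPM in ERβ1 + CLI libraries. No groups overlapped, but the lowest ERβ1 library and the highest with CLI differed by little (172.4 and 172.2 CPM). CDC20 RNA fell by 23.5% in ERβ1 cells (log2 fold change -0.39 ± 0.045, SE, edgeR adjusted p = 0.000502) and fell by 30.0% with CLI (-0.51 ± 0.045, edgeR adjusted p = 6.93e-05). Between ERβ1 cells with and without CLI the log2 difference was -0.13, with a 95% interval of -0.23 to -0.025 and an edgeR adjusted p of 0.271, so the further drop was not called.

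The other checkpoint and anaphase genes changed less. BUB1B encodes BubR1, which with MAD2 and BUB3 forms the complex that inhibits CDC20. BUB1B stood at 93.1, 98.2 and 91.7 CPM in control, 85.2, 87.5 and 89.2 CPM in ERβ1 and 83.2, 79.0 and 83.3 CPM in ERβ1 + CLI libraries, with no overlap between any groups. It was called lower with CLI (-0.21, edgeR adjusted p = 0.00577) and not without it (-0.11, edgeR adjusted p = 0.0842). The call was lost with the replicate number as a block in the 6 libraries compared (edgeR adjusted p = 0.0535). UBE2C is the ubiquitin-conjugating enzyme that works with the APC/C. Its RNA was at 219, 212 and 221 CPM in control, 201, 212 and 199 CPM in ERβ1 and 202, 197 and 195 CPM in ERβ1 + CLI libraries. ERβ1 libraries overlapped with control, and those with CLI did not. With CLI the log2 fold change was -0.13 (edgeR adjusted p = 0.0224), and this call was lost without control replicate 1 or 3 or ERβ1 + CLI replicate 2 or 3 (0.0585 to 0.0751). MAD2L1, the gene of the checkpoint protein MAD2, averaged 102 ± 1.27, 93.6 ± 5.39 and 92.0 ± 8.08 CPM (SD, n = 3 each) and was not called (log2 fold change -0.13 and -0.15). Securin (PTTG1), separase (ESPL1) and shugoshin (SGO1), which keep or release the cohesion of sister chromatids, had log2 fold changes of -0.10 to -0.018 with and without CLI, all with overlapping groups.

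Of the 5 mitotic kinases, 1 was called lower in ERβ1 cells and all 5 with CLI. Of the equally abundant genes 16.4% and 20.3% were called lower, so the share of kinases without CLI was close to the background. BUB1 is the kinase that recruits checkpoint proteins to kinetochores. BUB1 (chromosome 2, 110637698 to 110678114, minus strand) stood at 324, 343 and 313 CPM in control, 264, 285 and 260.1 CPM in ERβ1 and 254, 283 and 265 CPM in ERβ1 + CLI libraries. Both receptor groups lay below control and overlapped each other. It fell by 17.4% without CLI (edgeR adjusted p = 0.00726) and fell by 18.1% with it (edgeR adjusted p = 0.00437). PLK1, which acts in centrosome maturation, mitotic entry and cytokinesis, had 117, 124 and 119 CPM in control, 112, 114 and 115 CPM in ERβ1 and 103, 108 and 106 CPM in ERβ1 + CLI libraries. The groups did not overlap and stepped down in this order. The log2 fold change against control was -0.079 without CLI (edgeR adjusted p = 0.15) and -0.18 with CLI (edgeR adjusted p = 0.00472), and the difference between the receptor groups, -0.11 with a 95% interval of -0.19 to -0.026, was not called (edgeR adjusted p = 0.234).

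AURKA, the centrosomal aurora kinase, stood at 211, 209 and 215 CPM in control, 212, 209 and 201 CPM in ERβ1 and 201, 197 and 195 CPM in ERβ1 + CLI libraries. AURKB, the kinase of the chromosomal passenger complex, stood at 89.6, 90.2 and 95.1 CPM, 81.9, 90.8 and 86.4 CPM and 82.8, 83.7 and 81.3 CPM in the same order. TTK (MPS1), the kinase that starts checkpoint signalling, stood at 68.5, 72.4 and 68.6 CPM, 65.6, 64.9 and 60.9 CPM and 61.6, 64.5 and 61.4 CPM. For each of these 3 genes the libraries with CLI lay below all control libraries, while the ERβ1 libraries overlapped with control for both aurora kinases but not for TTK. With CLI the log2 fold changes were -0.099, -0.15 and -0.16, with edgeR adjusted p = 0.0469, 0.0371 and 0.0259. Without CLI they were -0.030, -0.085 and -0.13 and not called. Each of these calls was lost without any 1 control library or without ERβ1 + CLI replicate 1 or 3, and those of AURKA and AURKB also without ERβ1 + CLI replicate 2 (edgeR adjusted p over the losses of 0.0622 to 0.146 for AURKA, 0.0576 to 0.122 for AURKB and 0.051 to 0.112 for TTK). AURKA was also lost without ERβ1 replicate 1 or 2, and AURKB without ERβ1 replicate 3.

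Genes of mitotic entry held 1 call of 7 in either comparison (14.3%), below the 16.4% and 20.3% of the equally abundant genes called lower. CDK1 (chromosome 10, 60778331 to 60794852, plus strand) stood at 187, 190.0 and 200.1 CPM in control, 170.1, 169 and 166 CPM in ERβ1 and 174, 173 and 168 CPM in ERβ1 + CLI libraries. All receptor libraries were below all control libraries, and the receptor groups overlapped. CDK1 RNA fell by 12.4% (edgeR adjusted p = 0.0048) and fell by 10.8% with CLI (edgeR adjusted p = 0.00775). Its partner cyclin B1 (CCNB1) had 276, 275 and 275 CPM in control, 275, 265 and 247 CPM in ERβ1 and 259.8, 256 and 248 CPM in ERβ1 + CLI libraries. The ERβ1 libraries spread from the control level down to the level with CLI, and neither log2 fold change was called (-0.066 and -0.11, edgeR adjusted p = 0.3 and 0.0779). FOXM1, a transcription factor of G2 and M phase genes, had 208, 208 and 186 CPM in control, 189, 198 and 202 CPM in ERβ1 and 189, 189 and 199 CPM in ERβ1 + CLI libraries. All 3 groups overlapped, and the log2 fold changes were -0.033 and -0.061 (95% intervals -0.15 to 0.082 and -0.18 to 0.054).

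Cyclin A2 (CCNA2), which acts from S phase to early mitosis, averaged 191 ± 1.01 CPM in control, 192 ± 3.07 CPM in ERβ1 and 180.3 ± 4.83 CPM in ERβ1 + CLI libraries (SD, n = 3 each). Its libraries with CLI lay below all others, and the log2 difference between the receptor groups was -0.092 (edgeR adjusted p = 0.234). Cyclin B2 (CCNB2) and the CDK1-activating phosphatases CDC25B and CDC25C had log2 fold changes of -0.14 to 0.058 against control and were not called. CDC25B spread the most of these, from 156 to 203 CPM, with both ends in ERβ1 + CLI libraries.

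Kinetochore genes split. NDC80 and NUF2 encode the arm of the NDC80 complex that binds microtubules, and SPC25, with SPC24, the arm that binds the inner kinetochore. NDC80 (ENSG00000080986; chromosome 18, 2571511 to 2616635, plus strand) stood at 83.7, 82.0 and 85.4 CPM in control, 68.3, 68.2 and 66.1 CPM in ERβ1 and 66.9, 67.7 and 64.2 CPM in ERβ1 + CLI libraries. The receptor groups lay below control and overlapped each other. NDC80 RNA fell by 19.3% (log2 fold change -0.31 ± 0.036, SE, edgeR adjusted p = 0.000501) and fell by 20.8% with CLI (-0.34 ± 0.036, edgeR adjusted p = 0.000208). The 31 tested genes within 5 Mb of NDC80 had a median log2 fold change of -0.26 without and -0.185 with CLI, and whether NDC80 moved with its neighbourhood was not tested. NUF2 was at 90.7, 86.6 and 85.5 CPM in control, 73.9, 77.3 and 66.8 CPM in ERβ1 and 69.5, 78.1 and 68.5 CPM in ERβ1 + CLI libraries. Here too both receptor groups lay below control, with log2 fold changes of -0.27 and -0.28 (edgeR adjusted p = 0.0214 and 0.0139). The call of NUF2 was lost in ERβ1 cells without control replicate 1 or 2 or ERβ1 replicate 1 or 3 (0.0526 to 0.0795), and with CLI without control replicate 1 or ERβ1 + CLI replicate 1 or 3 (0.0523 to 0.0539).

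SPC25 was at 35.3 ± 0.870 CPM in control, 35.9 ± 1.82 CPM in ERβ1 and 34.7 ± 2.05 CPM in ERβ1 + CLI libraries (SD, n = 3 each), with overlapping groups and log2 fold changes of 0.026 and -0.024. SPC24, which is not a member and is named after its values were seen, stood at 45.9 ± 2.83 CPM in control, 51.8 ± 1.71 CPM in ERβ1 and 46.5 ± 1.70 CPM in ERβ1 + CLI libraries, and was called higher in ERβ1 cells (0.18, edgeR adjusted p = 0.0485) and not with CLI (0.02, edgeR adjusted p = 0.829). The SPC24 call was lost without control replicate 1 or 3, any 1 ERβ1 library or ERβ1 + CLI replicate 3 (0.0592 to 0.145). CENPF, a large protein of the outer kinetochore that accumulates in G2, was at 656, 649 and 619.6 CPM in control, 580.0, 569 and 548 CPM in ERβ1 and 567, 606 and 552 CPM in ERβ1 + CLI libraries. Its receptor groups lay below control, and CENPF fell by 11.8% and fell by 10.4% with CLI (edgeR adjusted p = 0.0147 and 0.0214). The calls of CENPF were lost without control replicate 1 or 2, without ERβ1 replicate 3 in the first case and without ERβ1 + CLI replicate 1 or 3 in the second (0.0592 to 0.0631 and 0.073 to 0.0796). The centromeric histone CENPA had a log2 fold change of 0.067 and 0.064 and was not called. The kinetochore motor CENPE stood at 159 ± 3.24 CPM in control, 149 ± 2.58 CPM in ERβ1 and 165 ± 12.4 CPM in ERβ1 + CLI libraries. From ERβ1 to ERβ1 + CLI cells the log2 difference was 0.14 (edgeR adjusted p = 0.276) and 0.075 without ERβ1 + CLI replicate 2, with 179 CPM in ERβ1 + CLI replicate 2 against 156 and 159 CPM in replicates 1 and 3.

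**Figure D3:**
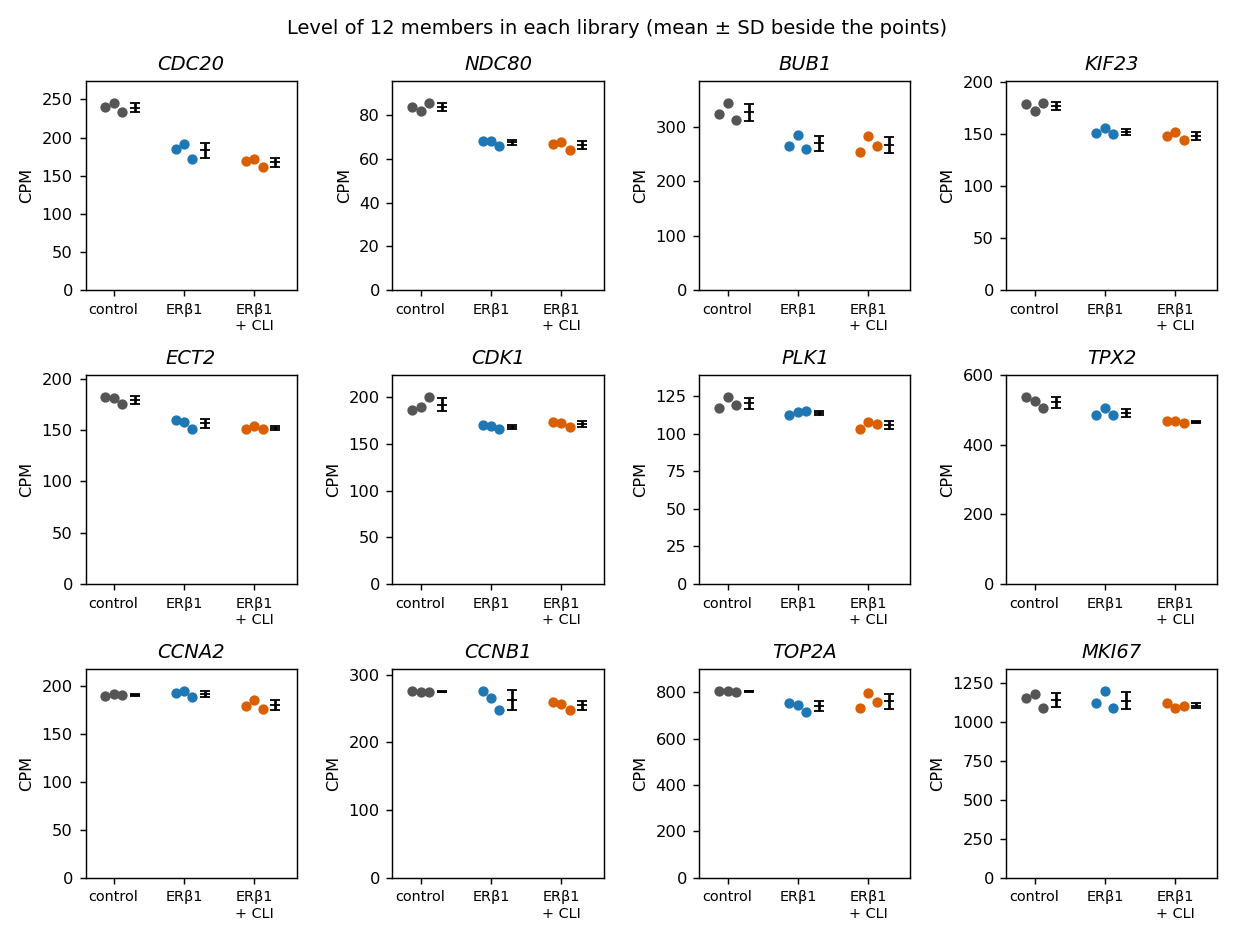
Level in CPM of 12 mitosis genes in each of the 9 libraries (points), with the mean and SD of each group beside them and axes from 0. CDC20 steps from 239 to 183 and 167 CPM, NDC80, BUB1, KIF23 and ECT2 drop in both receptor groups, and MKI67 overlaps between all groups.

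Among 7 mitotic kinesins, 3 were lower in both comparisons (42.9%, against 16.4% and 20.3% of the equally abundant genes). KIF23, a subunit of centralspindlin, which bundles the central spindle and is needed for cytokinesis, stood at 179, 172 and 179 CPM in control, 151, 156 and 150.0 CPM in ERβ1 and 148, 152 and 144 CPM in ERβ1 + CLI libraries. All receptor libraries were below all control libraries. KIF23 fell by 13.8% (edgeR adjusted p = 0.00249) and fell by 16.2% with CLI (edgeR adjusted p = 0.000702). KIF11 (Eg5), the motor that pushes spindle poles apart, was at 221, 223 and 215 CPM in control, 196, 201 and 186 CPM in ERβ1 and 191, 201 and 187 CPM in ERβ1 + CLI libraries. KIF14, which acts with citron kinase in cytokinesis, was at 118, 117 and 119 CPM, 108, 107 and 98.2 CPM and 104, 109.6 and 103 CPM in the same order. For both genes the receptor groups lay below control and overlapped each other. KIF11 had log2 fold changes of -0.17 and -0.19 (edgeR adjusted p = 0.0162 and 0.00985), and KIF14 -0.17 and -0.16 (edgeR adjusted p = 0.023 and 0.0272). In ERβ1 cells the calls of KIF11 and KIF14 were lost without control replicate 1 or 2 or ERβ1 replicate 3, and that of KIF14 also without control replicate 3 (0.0564 to 0.0696 for KIF11, 0.0695 to 0.0783 for KIF14). With CLI the call of KIF14 was lost without any 1 control library or ERβ1 + CLI replicate 1 or 3 (0.0751 to 0.0887).

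The other kinesins were not called. KIF4A, the chromokinesin that shortens the central spindle overlap with PRC1, was at 132, 129 and 128 CPM in control, 136, 137 and 132 CPM in ERβ1 and 135, 133 and 135 CPM in ERβ1 + CLI libraries. Every receptor library of KIF4A lay above every control library, with log2 fold changes of 0.060 and 0.049 (edgeR adjusted p = 0.195 and 0.266). With library totals in place of TMM it was called higher (edgeR adjusted p = 0.031 and 0.0376). The 46 tested genes within 5 Mb of KIF4A had a median log2 fold change of 0.121 without and 0.131 with CLI. Whether KIF4A moved with its neighbourhood was not tested. KIF20A, a motor of the central spindle, averaged 158 ± 3.48 CPM in control, 165 ± 1.47 CPM in ERβ1 and 160.3 ± 6.39 CPM in ERβ1 + CLI libraries. The microtubule-shortening kinesin KIF2C and the chromosome-alignment kinesin KIF18A had log2 fold changes of -0.079 to 0.035.

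All 3 cytokinesis genes were lower with CLI, and ECT2 and ANLN also without it, against 20.3% and 16.4% of the equally abundant genes. ECT2 is the exchange factor that switches on RhoA at the cell equator. ECT2 (chromosome 3, 172750682 to 172821474, plus strand) stood at 182, 181 and 175 CPM in control, 159.9, 158 and 151 CPM in ERβ1 and 151, 154 and 151 CPM in ERβ1 + CLI libraries. Receptor libraries all lay below control, and ECT2 fell by 12.8% (edgeR adjusted p = 0.0032) and fell by 15.4% with CLI (edgeR adjusted p = 0.000808). Anillin (ANLN), the scaffold of the contractile ring, was at 648, 669 and 631 CPM in control, 566, 576 and 557 CPM in ERβ1 and 536, 590.2 and 524 CPM in ERβ1 + CLI libraries. Its receptor libraries lay below control, with log2 fold changes of -0.20 and -0.24 (edgeR adjusted p = 0.0156 and 0.00477). PRC1, which bundles antiparallel microtubules, was at 197, 196 and 209 CPM in control, 187, 182 and 190.3 CPM in ERβ1 and 179, 190.5 and 176 CPM in ERβ1 + CLI libraries, with both receptor groups below control, and was called with CLI only (-0.14, edgeR adjusted p = 0.0375, against -0.10, edgeR adjusted p = 0.114). The call of ANLN in ERβ1 cells was lost without control replicate 2 or ERβ1 replicate 1 or 3 (0.0513 to 0.0666). That of PRC1 was lost without any 1 control library, ERβ1 replicate 1 or 3 or ERβ1 + CLI replicate 1 or 3 (0.0576 to 0.134).

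Of the spindle assembly factors, TPX2 and HMMR were called. TPX2, which activates and anchors AURKA on the spindle, was at 537, 525 and 505 CPM in control, 487, 505 and 485 CPM in ERβ1 and 467, 469 and 464 CPM in ERβ1 + CLI libraries. ERβ1 libraries overlapped with control, while those with CLI lay below both groups. TPX2 fell by 10.6% with CLI (edgeR adjusted p = 0.00465), against a log2 fold change of -0.085 without it (edgeR adjusted p = 0.0817). HMMR, a spindle pole adaptor that helps to place TPX2, was the least abundant member, at 17.9, 19.9 and 18.9 CPM in control, 15.6, 14.9 and 14.1 CPM in ERβ1 and 13.4, 17.4 and 15.3 CPM in ERβ1 + CLI libraries. Both receptor groups lay below control, and ERβ1 + CLI replicate 2 was close to it. HMMR had log2 fold changes of -0.35 ± 0.096 and -0.30 ± 0.096 (SE, edgeR adjusted p = 0.032 and 0.0487). These calls were lost without any 1 library of the groups compared (0.053 to 0.112 and 0.0638 to 0.157), except ERβ1 + CLI replicate 2, and with CLI also without any 1 ERβ1 library. NUSAP1, DLGAP5 (HURP) and ASPM, which bind and stabilise spindle microtubules or focus spindle poles, had log2 fold changes of -0.061 to 0.047 with overlapping groups and were not called.

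In the passenger complex, which corrects faulty attachments, survivin (BIRC5) averaged 149.9 ± 1.72 CPM in control, 134 ± 4.43 CPM in ERβ1 and 131 ± 12.5 CPM in ERβ1 + CLI libraries (SD, n = 3 each). BIRC5 had log2 fold changes of -0.16 and -0.20 and was called with CLI only (edgeR adjusted p = 0.0461). That call was lost on leaving out any 1 library except ERβ1 + CLI replicate 2 (0.0559 to 0.122). Its scaffold INCENP was at 139.7, 134 and 129 CPM in control, 137, 146 and 122 CPM in ERβ1 and 123, 94.8 and 115 CPM in ERβ1 + CLI libraries. ERβ1 + CLI replicate 2 was far below the rest. The log2 difference between the receptor groups, -0.28 with a 95% interval of -0.50 to -0.067, was not called (edgeR adjusted p = 0.242). It was -0.19 without ERβ1 + CLI replicate 2 and -0.12 with receptor libraries 1 and 3 alone.

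Topoisomerase IIα (TOP2A), which untangles and compacts chromosomes, had 805, 805 and 799.9 CPM in control, 755, 747 and 714 CPM in ERβ1 and 732, 795 and 757 CPM in ERβ1 + CLI libraries. All receptor libraries lay below all control libraries. It was lower in ERβ1 cells (-0.12, edgeR adjusted p = 0.0376) and not called with CLI (-0.077, edgeR adjusted p = 0.141). The TOP2A call was lost on leaving out any 1 control or ERβ1 library or ERβ1 + CLI replicate 3 (0.0569 to 0.146). MKI67, the gene of the proliferation marker Ki-67, had 1156, 1184 and 1095 CPM in control, 1127, 1201 and 1089.6 CPM in ERβ1 and 1122, 1094 and 1106 CPM in ERβ1 + CLI libraries. All groups overlapped, with log2 fold changes of -0.007 and -0.048 (95% intervals -0.10 to 0.086 and -0.14 to 0.045, edgeR adjusted p = 0.929 and 0.439).

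Over 20 alternatives of scaling, filter, test and libraries, 5 members were lower in ERβ1 cells in every one: BUB1, CDC20, ECT2, KIF23 and NDC80. With CLI these were 9, the same genes with ANLN, KIF11, PLK1 and TPX2. CDK1 was called on leaving out each of the 9 libraries in turn in both comparisons, but not under every setting. With library totals in place of TMM, the calls of KIF11, KIF14, CENPF, NUF2, HMMR, ANLN and TOP2A in ERβ1 cells were lost (edgeR adjusted p from 0.0574 to 0.248). With CLI, those of CDK1, AURKA, AURKB, TTK, UBE2C, KIF14, CENPF, BIRC5, HMMR and PRC1 were lost there (edgeR adjusted p from 0.0601 to 0.356). With the replicate number as a block in the 6 libraries compared, CDK1, KIF14, HMMR and TOP2A were lost in ERβ1 cells (edgeR adjusted p from 0.0534 to 0.082). With CLI, CDK1, BUB1B, AURKA, AURKB, TTK, UBE2C, KIF14, BIRC5, HMMR and PRC1 were lost under that block (edgeR adjusted p from 0.0517 to 0.128).

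The rest of the pathway was read from 6 lists of 144 other genes, also chosen with earlier results of these data known. All 144 were tested. By edgeR at an adjusted p under 0.05, 36 were lower and 3 higher in ERβ1 cells (25.0% lower). With CLI 45 were lower and none higher (31.2%). Over all genes tested 10.7% and 13.1% were called lower, and over the genes at least as abundant as the least abundant member 16.4% and 20.3%. None of the 144 was called between the receptor groups by edgeR, with 17 at an unadjusted p under 0.05 (11.8% against 12.8% of all genes). DESeq2 called 3 of them lower, against 1.65% of all genes. The members' shares of 29.5% and 47.7% lay above those of the 144 genes, and the shares were not tested against each other. The list of other spindle, centrosome and cytokinesis genes had the largest share, with 12 of 30 lower in ERβ1 cells and 13 with CLI. STMN1, the gene of the microtubule-destabilising protein stathmin, fell from 666 ± 16.4 CPM in control to 449 ± 11.8 CPM in ERβ1 and 409 ± 18.1 CPM in ERβ1 + CLI libraries (SD, n = 3 each). Its log2 fold changes were -0.57 and -0.70 (edgeR adjusted p = 2.26e-05 and 3.82e-06). The tubulin genes TUBB, TUBA1C and TUBA1B had log2 fold changes of -0.23, -0.21 and -0.19 in ERβ1 cells and of -0.28, -0.29 and -0.26 with CLI. Tubulin genes have near-identical copies, so reads may be split between them. MZT1, a component of the microtubule nucleation complex, fell by 0.43 on the log2 scale in ERβ1 cells and by 0.51 with CLI.

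**Figure D4:**
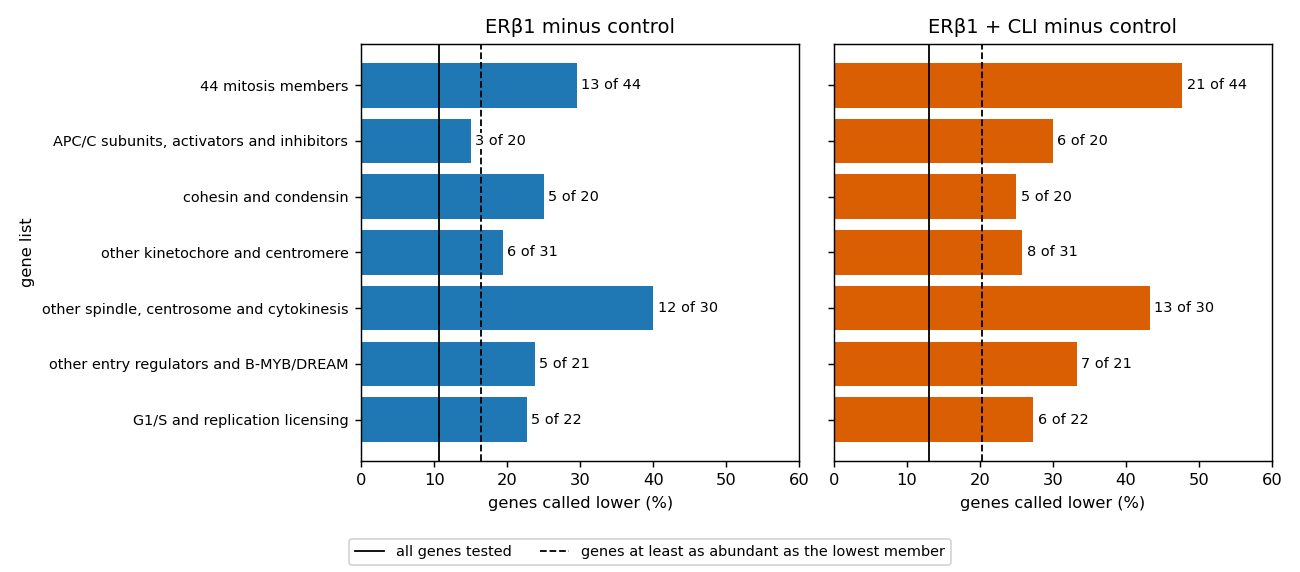
Share of genes called lower (edgeR adjusted p under 0.05) in the 44 mitosis genes and 6 lists of related genes, for ERβ1 against control cells on the left and ERβ1 + CLI against the same control cells on the right, with counts at the bar ends. Solid and dashed lines give the shares over all genes tested (10.7% and 13.1%) and over genes at least as abundant as the least abundant member (16.4% and 20.3%).

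Of 31 other kinetochore and centromere genes, 6 were lower (19.4%) and 1 higher in ERβ1 cells, and 8 were lower with CLI (25.8%). The equally abundant genes had 16.4% and 20.3% lower. CDCA8, the gene of borealin, a further passenger complex subunit, fell from 130.3 ± 5.59 CPM in control to 103 ± 1.28 CPM in ERβ1 and 98.5 ± 2.30 CPM in ERβ1 + CLI libraries (SD, n = 3 each; edgeR adjusted p = 0.00047 and 0.000116). CENPH and CENPN, of the inner kinetochore, and ZWINT, which binds the outer kinetochore scaffold, were lower in both comparisons, with log2 fold changes of -0.52, -0.20 and -0.24 in ERβ1 cells and of -0.47, -0.29 and -0.31 with CLI. The CENPN call in ERβ1 cells was lost without control replicate 1 or 2 or any 1 ERβ1 library (0.0531 to 0.0739). Of the complex that tracks microtubule ends, SKA1 was called in ERβ1 cells (-0.37) and not with CLI (-0.19, edgeR adjusted p = 0.0649), and SKA3 with CLI (-0.36) and not in ERβ1 cells (-0.19, edgeR adjusted p = 0.0722). Cohesin and condensin had 5 of 20 genes lower in each comparison (25.0%). The cohesin subunits RAD21, SMC3 and STAG1 had log2 fold changes of -0.26, -0.18 and -0.19 in ERβ1 cells and of -0.29, -0.17 and -0.21 with CLI. The calls of STAG1 were lost without control replicate 1 or 2, without any 1 ERβ1 library in the first case and without ERβ1 + CLI replicate 1 in the second (0.0501 to 0.0902 and 0.0501 to 0.0543). The condensin II subunit NCAPG2 had -0.20 and -0.27.

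APC/C subunits and regulators had 3 of 20 genes lower in ERβ1 cells and 6 with CLI. Of the equally abundant genes 16.4% and 20.3% were lower. The share of the APC/C list lay below this background without CLI and above it with CLI. The checkpoint protein gene BUB3 was lower, with log2 fold changes of -0.15 without and -0.31 with CLI, as was MAD2L2, which can bind the APC/C activators (-0.28 and -0.30). The BUB3 call without CLI was lost on leaving out control replicate 1 or ERβ1 replicate 1 or 3 (0.0683 to 0.0732). The APC/C subunit CDC16 was lower in both (-0.20 and -0.16), with the call with CLI lost without control replicate 2 or 3 or ERβ1 + CLI replicate 3 (0.0543 to 0.0659). ANAPC13 and ANAPC15 were called with CLI (-0.24 and -0.30) and not without it (-0.099 and -0.19, edgeR adjusted p = 0.187 and 0.073). In the list of entry regulators and DREAM or B-MYB genes, 5 of 21 were lower (23.8%) and 2 higher in ERβ1 cells. With CLI 7 were lower (33.3%). The CDK subunit CKS1B had log2 fold changes of -0.27 and -0.31, and the repressor E2F genes E2F4 and E2F5 -0.22 and -0.48 without and -0.27 and -0.40 with CLI. E2F7 was called with CLI (-0.26) and not without it (-0.14, edgeR adjusted p = 0.117). MYBL2, the gene of B-MYB, rose in ERβ1 cells, from 83.8 ± 3.86 to 102 ± 0.858 CPM (0.28 on the log2 scale, edgeR adjusted p = 0.0022), and stood at 89.7 ± 3.33 CPM with CLI (edgeR adjusted p = 0.138 against control). CCNF, the gene of cyclin F, also rose in ERβ1 cells, by 0.16 on the log2 scale. Of 22 genes of G1/S and replication licensing, 5 were lower in ERβ1 cells (22.7%) and 6 with CLI (27.3%). They included TYMS, the thymidylate synthase gene (log2 fold change -0.41 and -0.43), the licensing inhibitor GMNN (-0.29 in both) and MCM7 of the replicative helicase (-0.22 and -0.29). CDK4 was lower in both (-0.14 and -0.21), and its call without CLI was lost on leaving out any 1 of 6 libraries, control replicate 2 or 3, ERβ1 replicate 1 or 2, or ERβ1 + CLI replicate 1 or 2 (0.0528 to 0.126). MCM4 was called in ERβ1 cells (-0.22) and not with CLI (-0.15, edgeR adjusted p = 0.0611). The MCM4 call was lost without control replicate 1 or 3 or ERβ1 replicate 1 or 3 (0.056 to 0.0648).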

How the data were processed

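RNA of 9 libraries was sequenced, 3 for each of the groups control, ERβ1 and ERβ1 + CLI. The authors deposited estimated counts per gene, with no normalization stated, and a table of log2 CPM that covers 18934 genes. Per the submitters' processing notes, the tools were Salmon 1.2.1, edgeR 3.30.3 in R 4.0.2, Trimmomatic 0.38, FastQC and bcl2fastq 2.20, and the build GRCh38. Settings and annotation release: not given in the sources used here. Cell line numbers in the labels rise by 1 with each library, but the growth protocol has only MDA-MB-231, so all libraries were read as that line. Nothing says that replicates came from separate cultures, so p-values measure only the spread between these samples, which may be technical.

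The deposited estimated counts were rounded and fitted in R 4.3.3 with edgeR 4.0.16: filterByExpr by group, TMM, 1 quasi-likelihood fit of all 9 libraries, and Benjamini-Hochberg adjustment over 17058 genes, with calls at an adjusted p under 0.05. Tests were 2-sided. With 3 against 3 libraries the smallest exact permutation p is 0.1. Levels are CPM with TMM-scaled library sizes. Each SE was taken as the log2 fold change over the square root of F. The fit was tested on simulated data with changes larger than those of most members, so that trial does not cover changes of their size. Positions came from GENCODE release 29 (GRCh38) and promoters from RefSeq (GRCh38.p14). Rows of 14 pseudogenes or near copies of members, at most 0.316 CPM in any library, were not counted as members. Figures used Python 3.11.15, pandas 2.3.3 and matplotlib 3.10.9.

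The members, the lists and the rule for named genes were chosen with earlier results of these data known. Every library's value is printed for members called in at least 1 comparison, up to the 20 with the smallest adjusted p, and for CDK1, CCNB1, CDC20, PLK1, AURKA, AURKB, TOP2A, MKI67 and FOXM1. Up to 4 called genes of each other list are named, and 5 genes most like CDC20. INCENP, KIF4A and the other members given by library, group or range beyond that rule, and SPC24, CCNF and the genes named in counts, were added after their values were seen. Replicate numbers come from the titles and were not in the main fit. Residuals of 11196 genes correlated between same-numbered libraries at 0.178, 0.499 and 0.251 for ERβ1 with and without CLI, so these counted as pairs, although libraries 1 and 3 also correlated across numbers at 0.208 and 0.21. Same-numbered libraries correlated at -0.104, -0.105 and 0.00669, and 0.0378, -0.00631 and 0.0404, against control, so those did not count as pairs. Alternatives were RLE and upper quartile scaling, no TMM, 2 filters, DESeq2 1.42.0, limma-trend (limma 3.58.1) on the deposited log2 CPM, fits of 6 libraries, replicate blocks, receptor libraries 1 and 3 alone, and each library left out in turn.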

Additional observations from a re-analysis of the deposited data

How the results depend on the processing

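Counts of members lower in ERβ1 and in ERβ1 + CLI against control were 13 and 21. They were 12 and 13 with upper quartile scaling, 6 and 11 with library totals in place of TMM, 13 and 23 with DESeq2, 13 and 20 with limma-trend, 11 and 14 with no filter, 12 and 17 with a filter of 1 CPM, and 14 and 21 with receptor libraries 1 and 3 alone. The replicate number as a block gave 13 and 18 over 9 libraries and 9 and 11 over the 6 compared. Leaving out 1 library gave 6 to 13 and 11 to 21. Without TMM, 1 member was higher in each (KIF4A), and the medians were -0.034 and -0.071. Leave-one-out medians ran from -0.092 to -0.072 and from -0.122 to -0.113, and from -0.057 to -0.014 between the receptor groups, where every alternative, the replicate block included, called 0. In 880 gene and setting pairs each, 45 and 108 calls were lost and 5 and 11 gained, and none turned direction with a call. The cause of these changes was not tested, and groups of 3 limit what can be called.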

Other observations

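The 5 genes outside the list whose log2 CPM followed CDC20 most closely over the 9 libraries, of 12581 genes of at least 2 CPM, were CTNNAL1 (Pearson r 0.995), HMGB2 (0.994), MCM7 (0.993), DRAP1 (0.992) and CNN3 (0.992). The points are libraries of 3 groups that share the scaling, and differences between groups enter the correlation. CTNNAL1, an alpha-catenin-like gene, averaged 344 CPM in control, 263 CPM in ERβ1 and 236 CPM in ERβ1 + CLI libraries. HMGB2, a chromatin protein gene, averaged 303, 269 and 258 CPM. DRAP1 averaged 306, 251 and 232 CPM, and CNN3, a calponin gene, 447, 354 and 324 CPM. Among the other 43 members, 38 correlated positively with CDC20, with a median r of 0.785. No such count or median was taken over other genes, so these values have no background.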
